A study of Mus musculus with 12 samples.

Results

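The genes examined here encode the lysosome and the proton pump that acidifies it, and their 56 members were taken from a list of symbols chosen by function, among the 53379 genes listed in the count table. The members comprised 8 lysosomal membrane proteins and cholesterol carriers, 11 proteases, 11 glycosidases, 5 sulfatases, 8 lipid enzymes, activator proteins and acid phosphatases, 10 subunits of the vacuolar ATPase (V-ATPase) and 3 transcription factors of the MiT/TFE family. Every symbol was matched to 1 Ensembl identifier, and all 56 members were among the 12386 genes that passed the filter on low counts. RNA was measured in bone marrow-derived macrophages (BMDMs). They came from 4 C57Bl/6J mice, each of which gave untreated cells and cells that received 1 µM fenoterol, an agonist of the beta2-adrenergic receptor (B2AR), for 1 h or 4 h, which gave 4 libraries in each of 3 groups. All 3 groups came from the same strain, with no altered allele named, and were grown in L929-conditioned medium, which was left on the cells during treatment, and the labels name no vehicle for the untreated cells. The methods describe the donors of BMDMs as male mice of adult age, given as a range of weeks, and the labels give no age for each of these 4 mice.

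Lysosomes are acidic organelles in which proteases, glycosidases, sulfatases and lipases break down material taken up by phagocytosis or delivered by autophagy. The V-ATPase pumps protons across their membrane with a V1 sector that hydrolyses ATP in the cytosol and a V0 sector that carries the protons, and membrane proteins and transporters export the products. TFEB, TFE3 and MITF are basic helix-loop-helix leucine zipper factors that bind E-box motifs of the CLEAR type and are known to drive many lysosomal genes together. Macrophages hold many lysosomes, and B2AR raises cyclic AMP, which acts through the factor CREB on CRE motifs.

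Promoter sequence was read for the members because the MiT/TFE factors are themselves members and their motif is known. RefSeq windows of GRCm38.p6, from 250 bases before to 50 bases after an annotated start, were found for 47 of the 56 members, as 60 windows. The motifs searched were CACGTG, the core of the CLEAR element, TCACGTGA, a longer form that contains the first, and TGACGTCA, the CRE, each of which reads the same on both strands. CACGTG was found in windows of 16 of the 47 members (34%) and in 8.09% of 27025 genes with a window, TCACGTGA in 8 members (17%) and 1.12% of all genes, and TGACGTCA in 2 members (4.26%), *Gusb* and *Mitf*, and 2.03% of all genes. By window, CACGTG was in 26.7% of the members' windows and 7.15% of all 32851. All members passed the filter on low counts, while the genes with a window were not limited to those that did. The shares over the genes tested were not computed. For 51 of the 60 windows the RefSeq start lay within 50 bases of a transcript start in GENCODE M21. CACGTG of *Lgmn*, *Ctsl*, *Gla*, *Naglu* and *Gaa* was found only in windows beyond that distance, at 721, 214, 120, 82 and 63 bases. The other windows beyond it held no CACGTG. A match is a run of letters and no measured binding site. A few of these promoters are printed here as the 250 bases before the start, 5′ to 3′, with matches in capitals. They were chosen to show the array of 4 matches of *Lamp1*, an abundant glycoprotein of the lysosomal membrane (chr8:13158911-13159160, plus strand), matches of a protease, *Ctsd* (chr7:142387828-142388077, minus strand), a channel, *Mcoln1* (chr8:3500269-3500518, plus strand), and a pump subunit, *Atp6v1a* (chr16:44139260-44139509, minus strand), and the absence of a match for the lipase *Lipa* (chr19:34527475-34527724, minus strand).
Lamp1: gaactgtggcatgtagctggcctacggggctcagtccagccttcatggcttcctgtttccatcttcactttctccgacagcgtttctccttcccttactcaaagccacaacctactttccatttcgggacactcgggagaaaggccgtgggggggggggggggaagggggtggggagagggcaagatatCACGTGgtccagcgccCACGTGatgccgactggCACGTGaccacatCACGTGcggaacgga
Ctsd: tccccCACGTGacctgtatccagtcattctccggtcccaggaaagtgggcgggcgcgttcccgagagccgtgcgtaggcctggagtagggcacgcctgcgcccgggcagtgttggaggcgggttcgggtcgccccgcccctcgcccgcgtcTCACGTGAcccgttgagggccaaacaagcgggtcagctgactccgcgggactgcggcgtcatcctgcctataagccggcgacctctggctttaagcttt
Mcoln1: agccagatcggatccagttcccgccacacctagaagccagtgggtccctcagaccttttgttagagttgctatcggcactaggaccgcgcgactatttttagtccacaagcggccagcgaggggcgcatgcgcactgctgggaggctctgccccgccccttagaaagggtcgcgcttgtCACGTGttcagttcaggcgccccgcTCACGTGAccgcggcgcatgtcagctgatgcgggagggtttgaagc
Atp6v1a: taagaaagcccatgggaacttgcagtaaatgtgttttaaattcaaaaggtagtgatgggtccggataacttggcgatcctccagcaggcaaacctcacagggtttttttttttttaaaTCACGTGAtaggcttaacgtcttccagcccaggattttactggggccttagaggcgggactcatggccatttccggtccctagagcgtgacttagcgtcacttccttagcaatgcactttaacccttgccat
Lipa: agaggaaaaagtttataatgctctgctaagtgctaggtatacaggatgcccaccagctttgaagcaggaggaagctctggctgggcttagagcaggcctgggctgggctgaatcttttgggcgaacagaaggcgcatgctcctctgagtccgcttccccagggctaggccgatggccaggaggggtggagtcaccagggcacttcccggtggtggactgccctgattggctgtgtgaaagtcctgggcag

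After 4 h of fenoterol most lysosomal genes that moved had fallen, and after 1 h few had moved. At 4 h, 26 of the 56 members were lower and 4 were higher (adjusted p threshold 0.05, quasi-likelihood test of edgeR), so that 53.6% were called in either direction, against 40% of all genes tested (20.4% lower and 19.7% higher). The members lower at 4 h made up 46.4% of the list. The median log2 fold change of the members was -0.20 at 4 h, and that of all genes tested was 0.00. Changes of at least 1.5-fold were fewer: 8 members passed both thresholds at 4 h (14.3%), 1 of them higher and 7 lower, against 16.2% of all genes. The 7 were *Mitf*, *Atp6v0a1*, *Ctsc*, *Lipa*, *Atp6v0d2*, *Tfeb* and *Atp6v1b2*, and *Ctsl* was the 1 that rose. Without untreated mouse 2, untreated mouse 4 or mouse 1 at 4 h, 2 members were higher at 4 h in place of 4. In these bulk samples fewer cells of a type and less RNA per cell cannot be told apart.

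At 1 h, 6 members passed (10.7%), against 20.1% of all genes. The 3 that were higher were *Ctsl*, *Atp6v1c1* and *Atp6v1h* (10% of all genes were higher), and the 3 that were lower were *Cln3*, *Sgsh* and *Tfeb* (10.1% of all genes were lower). *Tfeb* was the 1 member with a change of at least 1.5-fold, against 7.52% of all genes, and the median of the members was 0.02. The counts at 1 h depended on the model, since with the mouse as a block 9 members were higher and 5 lower (13.3% and 13.7% of all genes in that fit), and with scaling by library size only 1 was higher and 6 lower (7.66% and 15.9% of all genes). Without the 1 h library of mouse 1, 1 member was higher. At 4 h the block gave 6 higher and 31 lower members, against 23.6% and 23.8% of all genes.

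**Figure D1:**
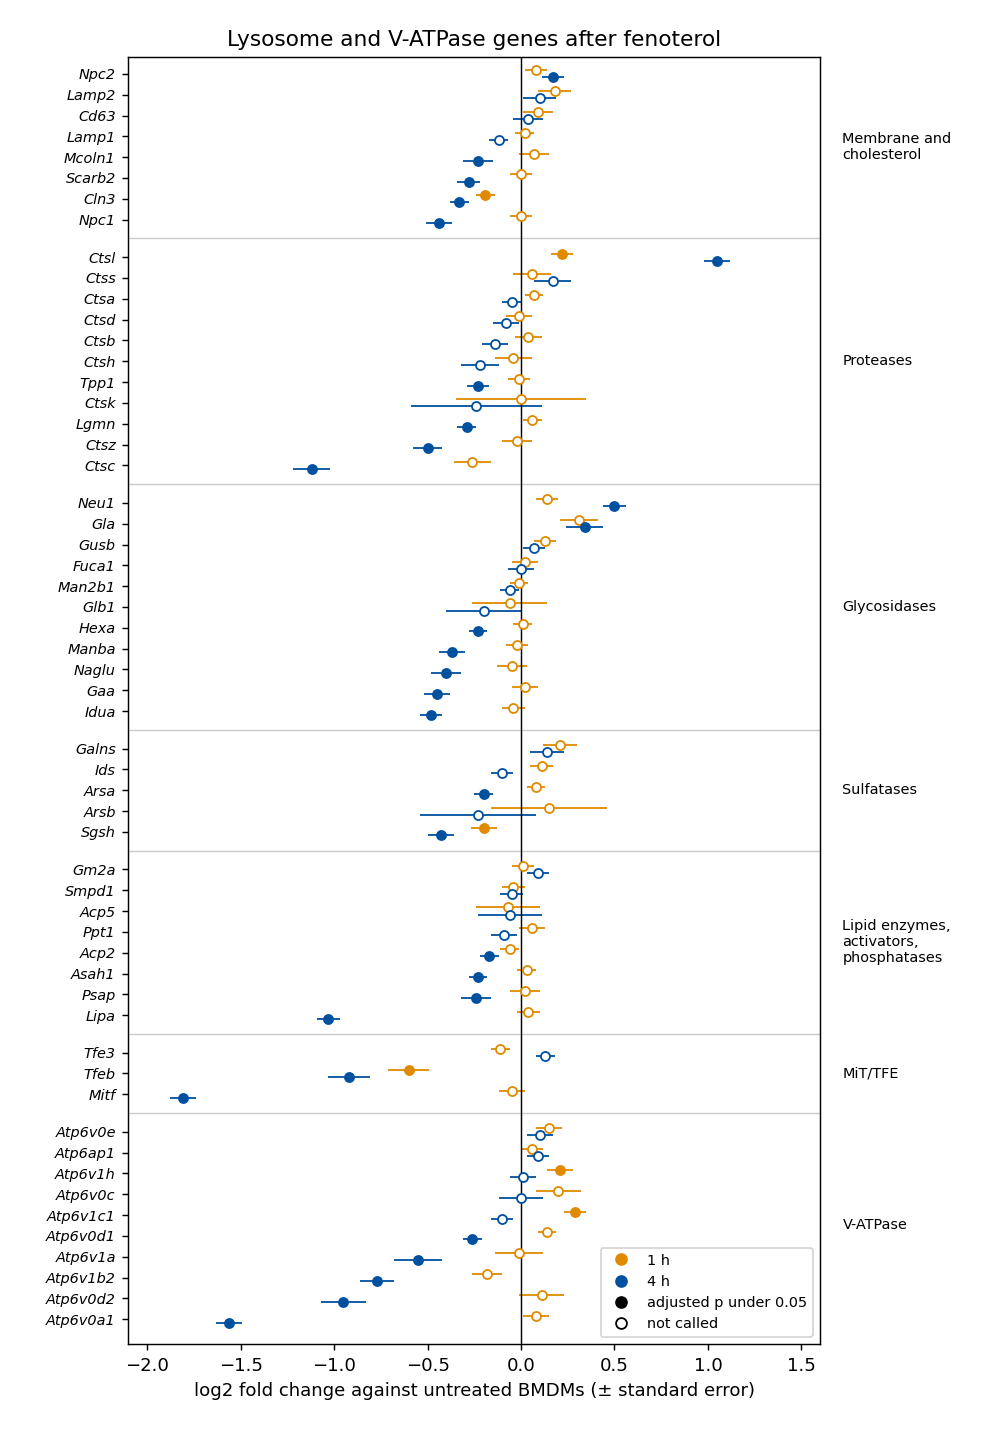
Log2 fold change of each of the 56 members against untreated BMDMs at 1 h (orange) and 4 h (blue), grouped by class, with the standard error from edgeR as a bar. Filled points had an adjusted p under 0.05: at 1 h, 3 members were higher and 3 lower, and at 4 h, 4 were higher and 26 lower.

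Among the MiT/TFE factors, *Mitf* and *Tfeb* fell and *Tfe3* did not. *Mitf* (ENSMUSG00000035158, chr6:97807052-98021349 on the plus strand), best known from melanocytes and osteoclasts, had the largest fall of all members. Its normalized counts, scaled to the mean library size, were 2153.7, 2062.8, 1950.0 and 2098.0 in untreated BMDMs of mice 1 to 4, 2078.2, 2132.1, 1862.7 and 1938.8 at 1 h and 527.8, 584.7, 585.1 and 656.6 at 4 h. The libraries at 4 h lay well below all others, and those at 1 h overlapped with untreated BMDMs. It fell by 71.5% at 4 h (log2 fold change -1.81, standard error 0.07, adjusted p = 8.79e-11). At 1 h its log2 fold change was -0.05 (adjusted p = 0.717).

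*Tfeb* (ENSMUSG00000023990, chr17:47737030-47792419 on the plus strand), the factor best known for driving lysosomal genes, was the member that changed most at 1 h. Its normalized counts were 1208.9, 1328.3, 1043.0 and 1205.2 in untreated BMDMs of mice 1 to 4, 706.1, 648.7, 804.3 and 993.0 at 1 h and 589.3, 636.9, 664.8 and 637.9 at 4 h. All libraries at 1 h were below all untreated ones, with mouse 4 the highest of them, and each mouse was lower still at 4 h, by little in mouse 2, so that the treated groups overlapped. *Tfeb* fell at 1 h (log2 fold change -0.60, standard error 0.11, adjusted p = 0.00111) and at 4 h (log2 fold change -0.92, standard error 0.11, adjusted p = 1.06e-05). Between the time points its log2 fold change was -0.32 (adjusted p = 0.0359). That last call did not pass when any 1 of 5 libraries was left out, those of mice 3 and 4 at 1 h and of mice 1, 2 and 4 at 4 h, with adjusted p from 0.0575 to 0.12.

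*Tfe3*, a close relative of *Tfeb*, was the most abundant of the 3 per length, at 30.8 FPKM (counts per kilobase of exon, scaled to library size) in untreated BMDMs against 10.8 for *Tfeb*, with *Mitf* between them. Its normalized counts were 5737.1, 5765.0, 5185.2 and 5714.5 in untreated BMDMs of mice 1 to 4, 4978.6, 5240.6, 5156.4 and 5402.0 at 1 h and 6105.7, 6491.7, 6099.4 and 5832.2 at 4 h. The 4 h libraries did not overlap with the untreated ones and were the highest. Its log2 fold change was -0.11 at 1 h (adjusted p = 0.175) and 0.13 at 4 h (adjusted p = 0.0574, and 0.032 with the mouse as a block, and DESeq2 called it higher), and it was higher at 4 h than at 1 h (log2 fold change 0.24, standard error 0.05, adjusted p = 0.00203). The fourth gene of the family, *Tfec*, was on another list and is named here after its values were seen. It fell from 831.2 ± 43.7 normalized counts (SD, n = 4) to 668.0 ± 90.4 at 1 h and 512.7 ± 74.1 at 4 h, with log2 fold changes of -0.32 and -0.70 (adjusted p = 0.0421 and 7.27e-05).

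**Figure D2:**
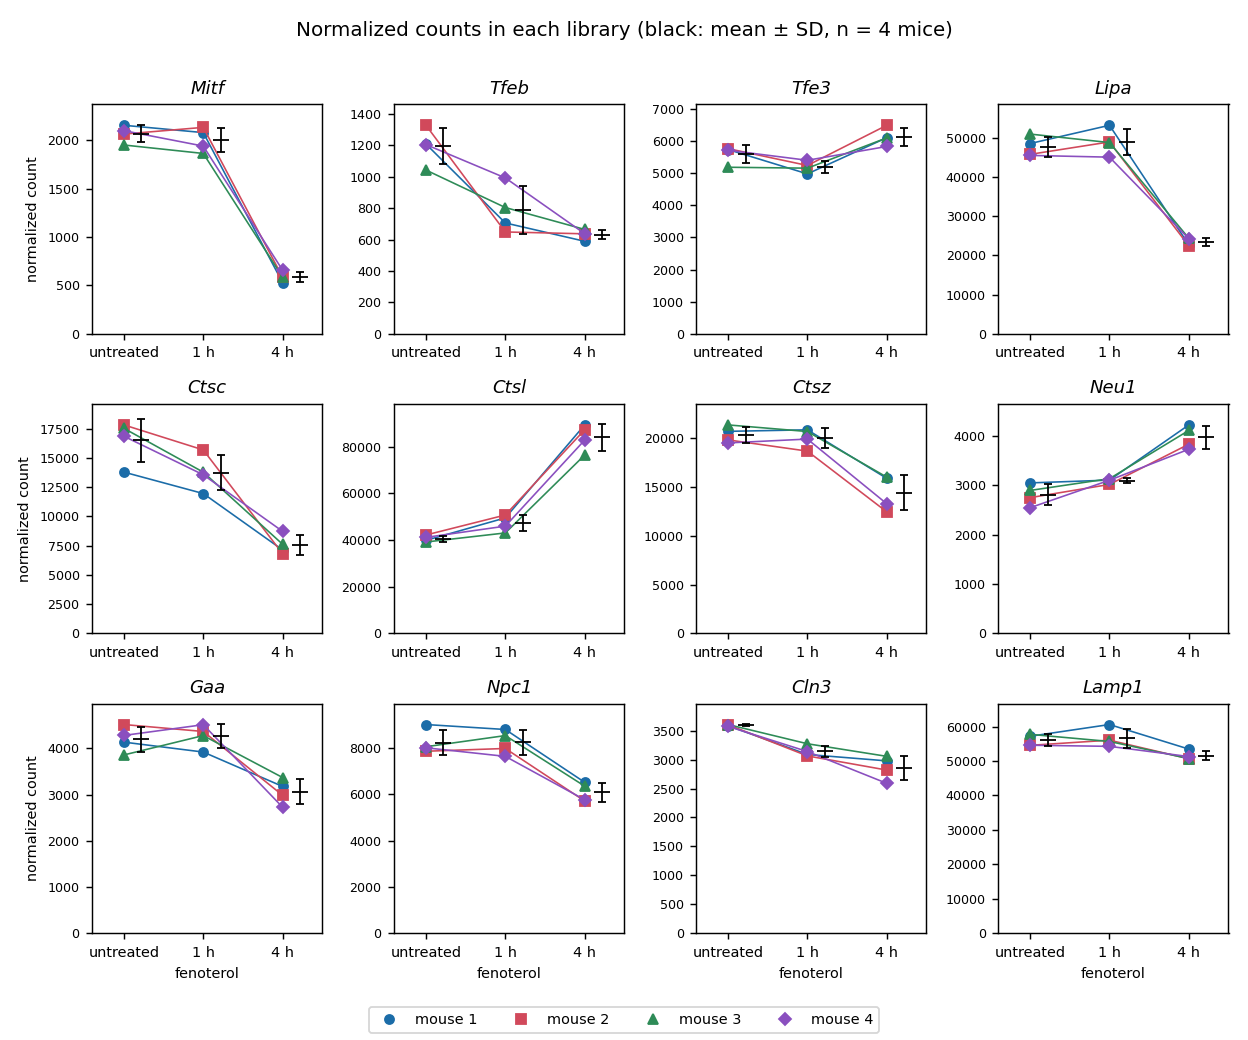
Normalized counts of 12 members in each library, with 1 line per mouse from untreated BMDMs to 1 h and 4 h of fenoterol and the mean ± SD of 4 mice in black. *Mitf*, *Lipa* and *Ctsc* dropped between 1 h and 4 h in all 4 mice, *Tfeb* was already lower at 1 h, and *Ctsl* and *Neu1* rose in all 4.

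Of the 10 V-ATPase subunits, 5 were lower at 4 h, and 0 were higher, also at an unadjusted p under 0.05 and in DESeq2, while 20.4% of all genes were lower and 19.7% higher. The median log2 fold change of the subunits was -0.18 at 4 h. At 1 h 2 were higher, against 10% of all genes. The summed normalized counts of the 10 subunits ran from 61689.7 to 71182.9 without fenoterol, from 64996.9 to 73882.2 after 1 h and from 44017.1 to 50714.7 after 4 h, when every library lay below all others. The fall of this sum is led by *Atp6v0a1* (mean 12629.9 untreated and 4282.3 at 4 h), *Atp6v1b2* (11663.2 and 6817.5) and *Atp6v1a* (14721.6 and 10071.9). The log2 fold change at 4 h was above 0 for 3 of the 10 subunits.

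*Atp6v0a1* (ENSMUSG00000019302, chr11:101009452-101063719 on the plus strand), 1 of several alternative a subunits of V0, had the second largest fall of the members. Its normalized counts were 13849.7, 12398.5, 11666.2 and 12605.1 in untreated BMDMs of mice 1 to 4, 13882.3, 13045.8, 12915.1 and 13455.6 at 1 h and 4629.9, 3692.7, 4263.5 and 4543.1 at 4 h. The 4 libraries at 4 h lay far below all others, with no overlap, and those at 1 h overlapped with untreated BMDMs. The gene fell by 66.1% at 4 h (log2 fold change -1.56, standard error 0.07, adjusted p = 6.03e-10), after a log2 fold change of 0.08 at 1 h (adjusted p = 0.526).

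*Atp6v0d2*, the form of the d subunit known from osteoclasts and macrophages, had 4019.9, 2897.9, 3257.4 and 3572.4 in untreated BMDMs of mice 1 to 4, 4793.6, 3303.4, 3204.5 and 3561.6 at 1 h and 1825.2, 1640.2, 1760.0 and 1891.8 at 4 h normalized counts. All values at 4 h were below the lowest of the other groups, and mouse 1 was the highest in the untreated and 1 h cells. It fell at 4 h (log2 fold change -0.95, standard error 0.12, adjusted p = 1.98e-05). *Atp6v0d1*, the widely expressed form of the same subunit, fell by less at 4 h (log2 fold change -0.26, standard error 0.05, adjusted p = 0.000689), and its log2 fold change at 1 h was 0.14 (adjusted p = 0.0679, and 0.0202 with the block). In untreated BMDMs *Atp6v0d1* was at 121.8 FPKM and *Atp6v0d2* at 64.5.

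In the V1 sector, both subunits that form its catalytic ring fell. *Atp6v1a*, the catalytic A subunit, had 14380.5, 12015.2, 18516.7 and 13974.0 in untreated BMDMs of mice 1 to 4, 15101.2, 12187.5, 17689.0 and 13542.8 at 1 h and 10400.8, 8591.3, 11272.1 and 10023.6 at 4 h normalized counts. Mouse 3 was the highest and mouse 2 the lowest in every group, and all 4 h values lay below all untreated ones. It fell at 4 h (log2 fold change -0.55, standard error 0.13, adjusted p = 0.00404), and its printed promoter holds 1 TCACGTGA.

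*Atp6v1b2*, the B subunit, had 13282.4, 11324.9, 11804.2 and 10241.1 in untreated BMDMs of mice 1 to 4, 11422.8, 10055.5, 10230.5 and 9383.2 at 1 h and 7685.8, 6543.9, 6695.7 and 6344.5 at 4 h normalized counts. The 4 h libraries did not overlap with either other group, and all 4 mice were lower at 1 h than untreated. It fell at 4 h (log2 fold change -0.77, standard error 0.09, adjusted p = 4.15e-06), and its log2 fold change at 1 h was -0.18 (adjusted p = 0.16, and 0.00294 with the block).

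Both other V1 subunits among the members rose at 1 h and were lower again at 4 h. *Atp6v1c1*, the C subunit, rose at 1 h (log2 fold change 0.29, standard error 0.06, adjusted p = 0.00457) and was lower at 4 h than at 1 h (log2 fold change -0.39, adjusted p = 0.00022). *Atp6v1h*, the H subunit, rose at 1 h by less (log2 fold change 0.21, standard error 0.07, adjusted p = 0.0484), and was lower at 4 h than at 1 h (log2 fold change -0.20, adjusted p = 0.0384). Its call at 1 h did not pass without any 1 of 9 libraries (adjusted p 0.0582 to 0.154), which were all but untreated mouse 3 and mice 2 and 4 at 1 h, and its call between the time points did not pass without any 1 of 6 (0.054 to 0.124), mice 1 and 3 at 1 h and every 4 h library. *Atp6v0c*, the proteolipid ring of V0, *Atp6v0e*, its small e subunit, and *Atp6ap1*, an accessory subunit, were not called in any comparison. For *Atp6v0c*, 10.8% of its 50-base sequences are shared with 2 pseudogenes that held 63 counts in all, so its level of 7.61 FPKM is uncertain.

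**Figure D3:**
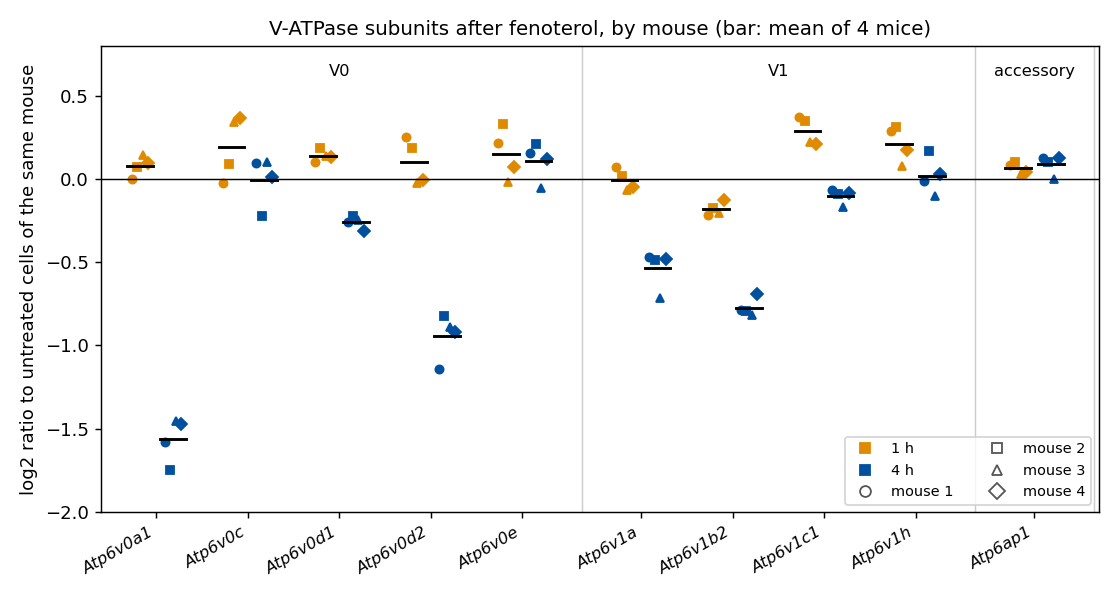
Log2 ratio of each V-ATPase subunit to untreated cells of the same mouse at 1 h (orange) and 4 h (blue), 1 symbol per mouse, with the mean of 4 mice as a black bar. *Atp6v0a1*, *Atp6v0d2*, *Atp6v1b2*, *Atp6v1a* and *Atp6v0d1* were below 0 in all 4 mice at 4 h, and *Atp6v1c1* and *Atp6v1h* were above 0 in all 4 at 1 h.

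Among the 8 membrane proteins and cholesterol carriers, 4 were lower and 1 higher at 4 h (20.4% and 19.7% of all genes), and 1 was lower at 1 h (10.1% of all genes). *Npc1*, which exports cholesterol from lysosomes, had 9013.1, 7858.6, 8053.7 and 8007.5 in untreated BMDMs of mice 1 to 4, 8798.9, 7978.6, 8535.5 and 7637.2 at 1 h and 6515.6, 5707.7, 6350.3 and 5762.0 at 4 h normalized counts. Every 4 h value was below every other value, and mouse 1 stood highest among the untreated. *Npc1* fell by 26.1% at 4 h (log2 fold change -0.44, standard error 0.07, adjusted p = 8.02e-05). Its soluble partner *Npc2* moved the other way and rose (log2 fold change 0.17, standard error 0.06, adjusted p = 0.0394). That rise did not pass without any 1 of 6 libraries, untreated mice 1, 2 and 4, mouse 3 at 1 h and mice 1 and 3 at 4 h, with adjusted p from 0.0575 to 0.146.

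*Cln3*, a lysosomal membrane protein mutated in juvenile Batten disease, had 3587.8, 3604.3, 3607.6 and 3575.6 in untreated BMDMs of mice 1 to 4, 3089.5, 3064.6, 3275.1 and 3140.0 at 1 h and 2978.8, 2819.9, 3057.1 and 2590.5 at 4 h normalized counts. The untreated libraries were nearly equal, and all treated ones were lower, without overlap at either time. It fell at 1 h (log2 fold change -0.19, standard error 0.05, adjusted p = 0.0172) and at 4 h (log2 fold change -0.33, standard error 0.05, adjusted p = 0.000157). The 1 h call had an adjusted p of 0.0521 without mouse 2 at 1 h. Its difference between the time points did not pass (adjusted p = 0.0573, and 0.0284 with the block). On the opposite strand *Apobr*, with 52778 counts in all libraries against 38199 of *Cln3*, overlaps 7.65% of the exon length of *Cln3*, and its part in these values was not tested.

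*Scarb2*, which encodes LIMP-2, the receptor that carries glucocerebrosidase to lysosomes, had 4530.0, 4778.5, 4455.7 and 4793.7 in untreated BMDMs of mice 1 to 4, 4690.8, 5006.3, 4422.7 and 4489.0 at 1 h and 3539.9, 4070.7, 3714.5 and 3909.2 at 4 h normalized counts. The 4 h values lay below all others, and the 1 h values spread around the untreated ones. A fall was called at 4 h (log2 fold change -0.28, standard error 0.06, adjusted p = 0.000984). *Mcoln1*, which encodes the lysosomal calcium channel TRPML1, had 1707.7, 1477.1, 1733.9 and 1586.4 in untreated BMDMs of mice 1 to 4, 1729.8, 1580.2, 1854.8 and 1682.3 at 1 h and 1364.2, 1251.8, 1636.9 and 1314.7 at 4 h normalized counts. Each mouse was lower at 4 h than untreated, but mouse 3 at 4 h overlapped with untreated libraries of other mice. Its fall at 4 h was close to the threshold (log2 fold change -0.23, standard error 0.08, adjusted p = 0.0423) and did not pass without any 1 of 8 libraries (adjusted p 0.0507 to 0.125), which were all but untreated mouse 2, mice 2 and 3 at 1 h and mouse 3 at 4 h.

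*Lamp1*, whose promoter holds the 4 matches printed above, had 57225.0, 54584.3, 57779.0 and 54613.3 in untreated BMDMs of mice 1 to 4, 60633.1, 56085.7, 55709.4 and 54290.4 at 1 h and 53492.2, 50678.0, 50733.2 and 51316.5 at 4 h normalized counts. The 4 h values were the lowest and did not overlap with the untreated ones, though the distance was small. Its log2 fold change was -0.12 at 4 h (adjusted p = 0.0685, and 0.0185 with the block), and it was lower at 4 h than at 1 h (log2 fold change -0.14, standard error 0.05, adjusted p = 0.0422), a call that did not pass without any 1 of 5 libraries, mice 1 and 2 at 1 h and mice 2, 3 and 4 at 4 h (0.0645 to 0.122). It also did not pass in 4 other alternatives, and with library size scaling only the difference was -0.04 (adjusted p = 0.493). *Lamp2*, the other major membrane glycoprotein, had log2 fold changes of 0.18 and 0.10 at 1 h and 4 h (adjusted p = 0.178 and 0.406), and *Cd63*, a tetraspanin of late endosomes and lysosomes, was not called in any comparison.

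The proteases moved in both directions, with 4 of 11 lower and 1 higher at 4 h (20.4% and 19.7% of all genes), and the 2 largest changes were opposite. *Ctsl* (ENSMUSG00000021477, chr13:64359337-64370890 on the minus strand), a cysteine endopeptidase, was the member with the largest rise. Its normalized counts were 39882.0, 42188.5, 39184.1 and 41168.1 in untreated BMDMs of mice 1 to 4, 49523.7, 50747.1, 43066.0 and 45978.2 at 1 h and 89367.1, 87281.5, 76458.5 and 82867.4 at 4 h. Both treated groups lay above all untreated libraries, and the 4 h group above the 1 h group. The level at 4 h was 2.07-fold that of untreated BMDMs (log2 fold change 1.05, standard error 0.07, adjusted p = 1.05e-08). The rise at 1 h was small (log2 fold change 0.22, standard error 0.06, adjusted p = 0.0247), and did not pass without any 1 of 4 libraries, untreated mice 1 and 3 and mice 1 and 2 at 1 h (0.06 to 0.0788).

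*Ctsc* (ENSMUSG00000030560, chr7:88278085-88310888 on the plus strand), dipeptidyl peptidase I, which activates granule serine proteases, had 13783.8, 17817.7, 17523.9 and 16848.5 in untreated BMDMs of mice 1 to 4, 11952.1, 15680.2, 13781.2 and 13556.2 at 1 h and 7132.0, 6807.0, 7616.9 and 8720.5 at 4 h normalized counts. Mouse 1 was the lowest in untreated cells, each mouse was somewhat lower at 1 h, and the 4 h values were far below both. It fell by 54.1% at 4 h (log2 fold change -1.12, standard error 0.10, adjusted p = 5.08e-07), and at 1 h its log2 fold change was -0.26 (adjusted p = 0.0822, and 0.00958 with the block).

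*Ctsz*, a cysteine carboxypeptidase, had 20694.4, 19817.5, 21353.4 and 19509.8 in untreated BMDMs of mice 1 to 4, 20849.6, 18669.3, 20675.7 and 19901.9 at 1 h and 15879.6, 12447.9, 16005.9 and 13279.3 at 4 h normalized counts. The 4 h group did not overlap with the others, and within it mice 1 and 3 were above mice 2 and 4. Its level fell at 4 h (log2 fold change -0.50, standard error 0.08, adjusted p = 0.000119). *Lgmn*, the asparaginyl endopeptidase that matures other cathepsins, had 52731.4, 54973.0, 55214.4 and 54676.9 in untreated BMDMs of mice 1 to 4, 54836.4, 57150.0, 56911.0 and 57703.3 at 1 h and 45888.7, 41478.0, 46339.1 and 44504.9 at 4 h normalized counts. Its 4 h values were below all others, and each mouse was slightly higher at 1 h than untreated. It was lower at 4 h (log2 fold change -0.29, standard error 0.05, adjusted p = 0.000246). *Tpp1*, a tripeptidyl peptidase, was the fourth protease that fell (log2 fold change -0.23, standard error 0.06, adjusted p = 0.00494).

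*Ctsd*, the main aspartic protease, was not called in any comparison. It had 128772.5, 116016.6, 126700.3 and 118653.6 in untreated BMDMs of mice 1 to 4, 129424.7, 113556.7, 121418.8 and 123853.1 at 1 h and 131938.0, 102462.6, 117248.2 and 111871.4 at 4 h normalized counts. The 3 groups overlapped throughout, and mouse 1 was the highest in each. Its log2 fold change at 4 h was -0.08 (standard error 0.07, adjusted p = 0.423). For *Ctsd*, 34.4% of the exon length lies under another gene model on the same strand, which held 0 counts, so reads there may not have been counted to either gene.

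The remaining proteases were *Ctsb*, the most abundant protease, *Ctss*, which processes the invariant chain, *Ctsh*, an aminopeptidase, *Ctsa*, a carboxypeptidase that protects beta-galactosidase and neuraminidase, and *Ctsk*, best known for collagen breakdown by osteoclasts. None of these 5 was called by edgeR without the block in any of the 3 comparisons. DESeq2 called *Ctsb* and *Ctsa* lower at 4 h than at 1 h (adjusted p = 0.0247 and 0.041), and limma-voom called *Ctsb* (0.0475). For *Ctsa*, 17.4% of the exon length lies opposite *Neurl2* and *Pltp*, which held 1027715 counts against its own 289763, and their part in its values was not tested. With the mouse as a block, *Ctsb* and *Ctsh* were lower at 4 h (log2 fold changes -0.14 and -0.21 in that fit, adjusted p = 0.00426 and 0.0042 against 0.118 and 0.0904 without it), and *Ctss* was higher (0.18, adjusted p = 0.00783 against 0.203). Between the time points, the block also called *Ctsa*, *Ctsb* and *Ctsh* lower at 4 h (adjusted p = 0.0223, 0.000814 and 0.0146).

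Among the 11 glycosidases, 5 were lower (45.5%, against 20.4% of all genes) and 2 higher (18.2%, against 19.7%) at 4 h, with a median log2 fold change of -0.20. At 1 h edgeR called 0, against 20.1% of all genes, with 3 higher at an unadjusted p under 0.05 and 1 higher in DESeq2. *Idua*, alpha-iduronidase, had 2059.3, 2274.6, 2143.9 and 2092.6 in untreated BMDMs of mice 1 to 4, 1941.5, 2107.3, 2236.4 and 2060.9 at 1 h and 1593.7, 1458.5, 1629.5 and 1452.0 at 4 h normalized counts. The 4 h values were below all others. It had the largest fall of the class (log2 fold change -0.48, standard error 0.06, adjusted p = 1.19e-05), though that of *Gaa* was close. Opposite *Idua* lie *Dgkq* and *Slc26a1*, which overlap 6.3% of its exon length and held 9416 counts against its own 22836. Their part in its values was not tested. *Gaa*, acid alpha-glucosidase, which breaks down glycogen, had 4135.9, 4517.1, 3858.5 and 4281.1 in untreated BMDMs of mice 1 to 4, 3921.0, 4366.6, 4277.6 and 4513.6 at 1 h and 3175.9, 2983.8, 3369.1 and 2725.4 at 4 h normalized counts. Its 4 h values were also below all others, with mouse 4 the lowest. It fell by 27.0% (log2 fold change -0.45, standard error 0.07, adjusted p = 0.000118).

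*Naglu*, an N-acetylglucosaminidase of heparan sulfate breakdown, had 3218.9, 3261.1, 3185.0 and 3109.3 in untreated BMDMs of mice 1 to 4, 3019.6, 2916.0, 3334.0 and 3104.1 at 1 h and 2617.9, 2064.0, 2732.1 and 2281.7 at 4 h normalized counts. Mice 2 and 4 were the lowest at 4 h, and no 4 h library reached an untreated one. At 4 h it fell (log2 fold change -0.40, standard error 0.08, adjusted p = 0.000759). *Hexa*, the alpha subunit of beta-hexosaminidase and the most abundant glycosidase, had 38079.0, 39014.4, 41381.1 and 39192.9 in untreated BMDMs of mice 1 to 4, 39354.9, 39569.8, 40629.6 and 39704.3 at 1 h and 34110.2, 32172.7, 35225.4 and 32928.8 at 4 h normalized counts. The untreated and 1 h groups overlapped and the 4 h group was below both. The gene fell at 4 h (log2 fold change -0.23, standard error 0.05, adjusted p = 0.00126), as did *Manba*, lysosomal beta-mannosidase (log2 fold change -0.37, standard error 0.07, adjusted p = 0.000349).

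*Neu1*, the lysosomal neuraminidase, rose. Its normalized counts were 3049.1, 2750.5, 2896.5 and 2547.1 in untreated BMDMs of mice 1 to 4, 3106.0, 3018.4, 3134.9 and 3103.1 at 1 h and 4224.1, 3833.7, 4112.6 and 3731.4 at 4 h. All 4 h libraries exceeded all others, and each mouse was higher at 1 h than untreated. Its log2 fold change was 0.14 at 1 h (adjusted p = 0.134, and 0.0378 with the block), and it rose by 41.4% at 4 h (log2 fold change 0.50, standard error 0.06, adjusted p = 9.31e-06). *Gla*, alpha-galactosidase A, rose at 4 h (log2 fold change 0.34, standard error 0.10, adjusted p = 0.0169), with a similar value at 1 h (log2 fold change 0.31, standard error 0.10, adjusted p = 0.0519, and adjusted p = 0.000405 with the block). The 4 h call of *Gla* did not pass without untreated mouse 2, untreated mouse 4 or mouse 1 at 4 h (0.0544 to 0.0662).

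*Glb1*, beta-galactosidase, *Gusb*, beta-glucuronidase, *Man2b1*, lysosomal alpha-mannosidase, and *Fuca1*, alpha-fucosidase, were not called in any comparison. With the block, *Gusb* was higher at 1 h (log2 fold change 0.13, adjusted p = 0.031 against 0.16) and *Glb1* was lower at 4 h than untreated (-0.20, 0.00298 against 0.458) and than at 1 h (adjusted p = 0.0351).

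Of the 5 sulfatases, 2 fell at 4 h (20.4% of all genes were lower and 19.7% higher) and 0 rose, also at an unadjusted p under 0.05 and in DESeq2. *Sgsh*, the sulfamidase of heparan sulfate breakdown, had 4452.9, 5104.2, 4191.4 and 4590.2 in untreated BMDMs of mice 1 to 4, 3617.8, 4256.2, 4031.4 and 4082.8 at 1 h and 3480.5, 3399.3, 3467.3 and 3221.4 at 4 h normalized counts. Each mouse was lower at 1 h than untreated with an overlap between mice, and the 4 h group was below both. The fall at 4 h passed the test (log2 fold change -0.43, standard error 0.07, adjusted p = 8.62e-05). At 1 h its fall was at the threshold (log2 fold change -0.20, standard error 0.07, adjusted p = 0.0461), and did not pass without any 1 of 10 libraries (0.051 to 0.156), all but untreated mouse 3 and mouse 2 at 1 h. *Arsa*, arylsulfatase A, which degrades sulfatide, had 1499.9, 1679.5, 1597.8 and 1588.6 in untreated BMDMs of mice 1 to 4, 1624.9, 1647.8, 1630.2 and 1809.5 at 1 h and 1363.2, 1321.7, 1428.6 and 1406.0 at 4 h normalized counts. All 4 h values were below all others, by a small distance. It fell after 4 h (log2 fold change -0.20, standard error 0.05, adjusted p = 0.00648). *Ids*, iduronate 2-sulfatase, was lower at 4 h than at 1 h (log2 fold change -0.21, standard error 0.06, adjusted p = 0.0171), which did not pass without mouse 4 at 1 h or mice 1 or 3 at 4 h (0.0513 to 0.057), and was -0.11 with library size scaling only (adjusted p = 0.176). *Galns*, of keratan sulfate breakdown, had a log2 fold change of 0.21 at 1 h (adjusted p = 0.145, and 0.0104 with the block). *Arsb*, arylsulfatase B, of dermatan sulfate breakdown, is described with the differences between mice.

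Among the lipid enzymes, activators and acid phosphatases, 4 of 8 fell at 4 h (20.4% of all genes were lower) and 0 rose (19.7% were higher). At 1 h edgeR called 0 of the 8, against 20.1% of all genes. Both counts were also 0 at an unadjusted p under 0.05 and in DESeq2. *Lipa* (ENSMUSG00000024781, chr19:34492318-34527474 on the minus strand), lysosomal acid lipase, which hydrolyses cholesteryl esters and triglycerides, had 48482.0, 45723.0, 50888.9 and 45451.3 in untreated BMDMs of mice 1 to 4, 53130.2, 48891.0, 48727.6 and 45008.8 at 1 h and 22665.4, 22412.1, 24332.9 and 24222.3 at 4 h normalized counts. The 4 h values were close together and far below all others, and the 1 h values overlapped with the untreated ones. It fell by 50.9% at 4 h (log2 fold change -1.03, standard error 0.06, adjusted p = 6.77e-09), with a nearly equal difference between the time points (log2 fold change -1.06, standard error 0.06, adjusted p = 7.78e-09).

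*Psap*, prosaposin, the precursor of the saposin activators, was the member with the highest level per length, at 4364.9 FPKM in untreated BMDMs. It had 245409.9, 254708.4, 208858.6 and 230844.1 in untreated BMDMs of mice 1 to 4, 247671.1, 248915.0, 214407.2 and 243992.8 at 1 h and 207393.6, 212297.1, 194631.7 and 181336.3 at 4 h normalized counts. Each mouse was lower at 4 h than untreated, and untreated mouse 3 overlapped with the 4 h group. By 4 h it had fallen (log2 fold change -0.24, standard error 0.08, adjusted p = 0.0198), a call that did not pass without untreated mice 1 or 2 or mouse 4 at 4 h (0.0509 to 0.0656).

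*Asah1*, acid ceramidase, had 12459.8, 12633.1, 13169.4 and 12379.0 in untreated BMDMs of mice 1 to 4, 13258.4, 13625.8, 12558.1 and 12343.7 at 1 h and 10675.1, 11086.5, 10229.6 and 11328.2 at 4 h normalized counts. The 4 h group lay below both others. It was reduced at 4 h (log2 fold change -0.23, standard error 0.05, adjusted p = 0.00236). *Acp2*, lysosomal acid phosphatase, had 6297.4, 6913.7, 6783.0 and 6692.4 in untreated BMDMs of mice 1 to 4, 6070.1, 6669.9, 6609.1 and 6252.4 at 1 h and 5688.5, 5871.6, 5902.2 and 6264.2 at 4 h normalized counts. Its 4 h values were just below the lowest untreated one. It fell by 11.1% (log2 fold change -0.17, standard error 0.05, adjusted p = 0.0157), which did not pass without the filter on low counts (adjusted p = 0.07). *Ppt1*, palmitoyl-protein thioesterase, *Smpd1*, acid sphingomyelinase, *Gm2a*, the activator of ganglioside GM2 breakdown, and *Acp5*, tartrate-resistant acid phosphatase, were not called in any comparison. With the block, *Ppt1* was lower at 4 h than at 1 h (adjusted p = 0.0322).

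Between the 2 time points, 28 members were lower and 3 higher at 4 h than at 1 h, a share of 55.4% against 38.5% of all genes tested (19.8% lower and 18.7% higher). The median difference was -0.21, that of all genes 0.01, and 7 members differed at least 1.5-fold, against 13.8% of all genes. With scaling by library size only, 20 were lower and 5 higher (14.8% and 28.3% of all genes in that fit), and with the block 35 were lower and 3 higher (23.6% and 23% of all genes). Without the block, 22 members had the same calls: none at 1 h, and lower at 4 h than untreated and than at 1 h. They came from all 7 classes. They made up 39.3% of the members, and 11.1% of all genes tested had these calls. With the block, *Ctsc* and *Atp6v1b2* of the 22 were lower at 1 h (adjusted p = 0.00958 and 0.00294), and *Atp6v0d1* was higher (0.0202). Another 21 members were not called in any comparison by edgeR without the block (37.5%, against 47.2% of all genes). Of these, 9 were called in at least 1 comparison with the mouse as a block (42.9%, against 19.9% of all genes never called), 2 by DESeq2, 1 by limma-voom and 1 with scaling by library size only, which was *Gm2a*, higher at 4 h than at 1 h (adjusted p = 0.0294). *Ctsl* rose at both times and further at 4 h, while *Sgsh*, *Tfeb* and *Cln3* fell at both. The comparisons share the same libraries pairwise and are not independent of each other.

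By class, the share of members called lower at 4 h was 4 of 8 for membrane proteins, 4 of 11 for proteases, 5 of 11 for glycosidases, 2 of 5 for sulfatases, 4 of 8 for lipid enzymes and phosphatases, 5 of 10 for V-ATPase subunits and 2 of 3 for MiT/TFE factors. The class medians at 4 h were -0.17, -0.22, -0.20, -0.20, -0.13, -0.18 and -0.92 in the same order. Falls of at least 1.5-fold were 3 V-ATPase subunits, 2 MiT/TFE factors, 1 protease and 1 lipid enzyme, and 8.58% of all genes fell by as much. No class was tested against another. Of the 16 members with CACGTG in a promoter window, 9 were lower and 2 higher at 4 h and 5 were not called, and of the 31 with a window and no match, 13 were lower, 2 higher and 16 not called, while 20.4% of all genes were lower, 19.7% higher and 40% called in either direction. The members with and without a match were not tested against each other. The 2 members with the largest falls that have a window, *Mitf* and *Atp6v0a1*, had no CACGTG in it, though the RefSeq start of *Atp6v0a1* lies 259 bases from the nearest GENCODE transcript start. All 56 members together took 7.09% to 7.4% of the counts of an untreated library, 6.95% to 7.38% at 1 h and 6.51% to 7.12% at 4 h.

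Other genes of the pathway, on lists that hold none of the members, were described by the same calls. Their counts are to be read against all genes tested, of which 20.4% were lower and 19.7% higher at 4 h (40% in either direction) and 10.1% lower and 10% higher at 1 h (20.1%). Of 15 other V-ATPase genes 9 were tested, and at 4 h 1 was higher and 3 lower. *Atp6v0a2*, another a subunit, rose from 957.6 ± 34.2 to 1560.0 ± 105.3 normalized counts (SD, n = 4), with a log2 fold change of 0.70 (adjusted p = 1.67e-07), opposite to *Atp6v0a1*. *Tcirg1*, the a subunit known from osteoclasts, and *Atp6v1g1*, a G subunit of V1, fell, each with a log2 fold change of -0.34 (adjusted p = 0.00106 and 0.000949). Of the 9, edgeR called 0 at 1 h, DESeq2 also 0, and 1 was lower at an unadjusted p under 0.05. With the mouse as a block *Tcirg1* was lower at 1 h (adjusted p = 0.0388 against 0.101).

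Of 22 other hydrolases, 7 were lower (31.8%) and 1 higher (4.55%) at 4 h, and 1 was lower and 1 higher at 1 h (9.09% in both directions together). *Pla2g15*, the lysosomal phospholipase A2, fell from 8302.8 ± 486.7 normalized counts to 6483.6 ± 379.6 at 1 h and 3505.3 ± 39.7 at 4 h (log2 fold changes -0.36 and -1.24, adjusted p = 0.000233 and 3.58e-10). *Galc*, galactosylceramidase, fell at 4 h (log2 fold change -0.53, standard error 0.05, adjusted p = 3.42e-07). *Scpep1*, a serine carboxypeptidase, was at the threshold at 1 h (log2 fold change 0.16, standard error 0.05, adjusted p = 0.0446), and its call did not pass without any 1 of 10 libraries, all but mice 1 and 4 at 4 h (0.0531 to 0.132).

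Of 26 other lysosomal membrane proteins tested, 15 were lower (57.7%) and 3 higher (11.5%) at 4 h, and 6 were lower (23.1%) and 4 higher (15.4%) at 1 h. *Slc15a3*, a transporter of histidine and small peptides, rose from 5148.9 ± 708.2 to 15101.4 ± 1677.6 at 1 h and 19332.8 ± 2214.2 at 4 h (log2 fold changes 1.55 and 1.91, adjusted p = 9.08e-08 and 6.43e-09). *Tpcn2*, a cation channel of endolysosomes, rose by 1.29 on the log2 scale at 4 h (adjusted p = 1.45e-10), and *Cln8* fell most at 1 h (-1.05, adjusted p = 2.67e-08).

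Of 15 genes for the sorting of lysosomal enzymes, 5 were lower (33.3%) and 4 higher (26.7%) at 4 h, and 1 was lower and 1 higher at 1 h (13.3%). The adaptors *Gga2* and *Gga3* had the largest changes at 4 h (-0.88 and -0.57, adjusted p = 1.09e-06 and 7.1e-06). At 1 h *Gga3* fell (-0.32, adjusted p = 0.00308), and *Vps29* of the retromer rose (0.23, adjusted p = 0.0194), which did not pass without untreated mouse 2 or mouse 1 at 1 h (0.0654 and 0.0669).

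Of 21 genes tested for nutrient sensing at the lysosome, 11 were lower (52.4%) and 3 higher (14.3%) at 4 h, and 6 were lower (28.6%) and 1 higher (4.76%) at 1 h. *Flcn*, which encodes folliculin, fell at 1 h (log2 fold change -0.55, standard error 0.07, adjusted p = 2.97e-05), and its partner *Fnip2* and the GTPase *Rragd* had the largest falls at 4 h (-1.41 and -1.06, adjusted p = 7.17e-08 and 5.04e-05). *Rheb*, the GTPase that activates mTORC1, rose at 1 h (0.55, adjusted p = 3.46e-05). Of 24 autophagy genes, 9 were lower (37.5%) and 6 higher (25%) at 4 h, and 5 were lower (20.8%) and 4 higher (16.7%) at 1 h. *Gabarapl1*, of the ATG8 family, fell by 49.9% at 4 h (adjusted p = 3.97e-08), and *Uvrag*, a partner of beclin 1, rose (0.91, adjusted p = 2.71e-09). At 1 h *Atg16l1* rose and *Vps18* fell (0.52 and -0.37, adjusted p = 1.43e-05 and 0.00448).

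The cells were checked against marker lists. All 8 macrophage markers were tested and were abundant, and together they took 3.86% to 4.02% of an untreated library's counts, 3.6% to 4.14% after 1 h and 3.7% to 4.1% after 4 h. These sums are led by *Lyz2*, and single markers moved more. At 4 h 3 of the 8 were higher and 4 lower (19.7% and 20.4% of all genes). *Cd14*, the co-receptor for lipopolysaccharide, rose 5.22-fold at 1 h and 5.72-fold at 4 h (adjusted p = 3.45e-11 and 3.84e-11), and *Mertk*, a receptor for the uptake of dead cells, fell by 64.9% at 4 h (adjusted p = 5.13e-11). The part of these changes in the results for the members was not tested. The 6 lymphocyte markers were near 0 and none was tested, and edgeR called 0 of the 5 neutrophil, 1 dendritic cell and 3 fibroblast markers that were tested (of 7, 5 and 6 listed) at either time against untreated BMDMs. None had an unadjusted p under 0.05, and of the other tools limma-voom called 1 dendritic cell marker lower at 4 h. Osteoclast markers bear on the members, since *Ctsk*, *Acp5* and *Atp6v0d2* are on both lists. Of 11 osteoclast markers 8 were tested, and 4 fell at 4 h (20.4% of all genes were lower), *Atp6v0d2*, *Dcstamp*, *Itgb3* and *Nfatc1* (log2 fold changes -0.95, -0.80, -1.58 and -0.37). The other 4, *Ctsk*, *Acp5*, *Mmp9* and *Tnfrsf11a*, were not called at 4 h. The summed share of the list ran from 0.0429% to 0.0488% without fenoterol, from 0.0399% to 0.0475% after 1 h and from 0.0328% to 0.0332% after 4 h. *Atp6v0d2* leads this sum in untreated BMDMs and at 1 h. At 4 h *Nfatc1* leads it, with a mean of 1842.9 normalized counts against 1779.3 of *Atp6v0d2*. Without the 3 markers that are members the share was 0.0255% to 0.0279%, 0.0229% to 0.0254% and 0.0222% to 0.024% in the same order. *Calcr*, which defines mature osteoclasts, had 0 counts in every library, and *Oscar* and *Ocstamp* were near 0. The part of these markers in the results for the members was not tested.

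In untreated BMDMs most members were expressed far above the typical gene. Their median was 64.7 FPKM, that of all genes tested was 5.14, and 54 of the 56 exceeded the latter. *Psap*, at 4364.9 ± 371.2 FPKM (SD, n = 4), was the second and *Ctsb*, at 3553.3, the fifth most abundant of all genes tested. *Ctsd* at 2657.0, *Ctss* at 2076.0, *Lgmn* at 1193.8, *Lamp1* at 1068.1 and *Hexa* at 1006.7 followed. The lowest were *Acp5* at 1.63 and *Ctsk* at 2.14, below *Atp6v0c* at 7.61 and *Atp6v1h* at 8.76. In the order of all 56, 36 of 55 neighbouring pairs overlapped in their libraries and are not told apart. The lengths are those of all annotated exons of a gene together, so a gene with long rarely used exons is listed too low.

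**Figure D4:**
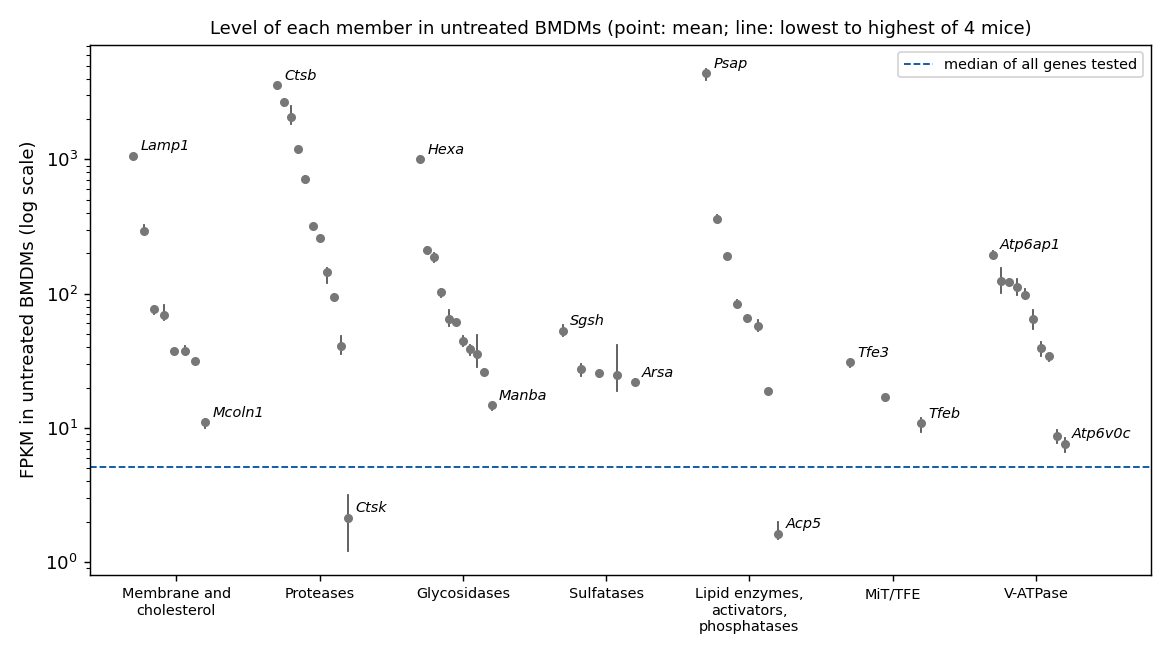
Level of each member in untreated BMDMs in FPKM on a log axis, by class, with the mean as a point and the lowest to highest of 4 mice as a line. Of the 56 members, 54 lay above the dashed line, the median of all genes tested (5.14 FPKM), and *Ctsk* and *Acp5* lay below it.

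Some members differed more between the mice than between the treatments. *Arsb* had 2298.3, 2349.7, 2231.7 and 4878.8 in untreated BMDMs of mice 1 to 4, 2715.4, 2404.6, 2777.8 and 5161.9 at 1 h and 1850.3, 1906.4, 2253.5 and 3977.0 at 4 h normalized counts. Mouse 4 was far above the others in all 3 groups, and its mean over the groups was 1.93 times that of the next mouse. The log2 fold change of *Arsb* at 4 h was -0.23 (standard error 0.31, adjusted p = 0.598), and 0.11 without untreated mouse 4. With the mouse as a block, *Arsb* was higher at 1 h and lower at 4 h (log2 fold changes 0.17 and -0.22 in that fit, adjusted p = 0.043 and 0.00451), and lower at 4 h than at 1 h (adjusted p = 3.36e-05). *Glb1* had 1859.3, 2888.5, 1939.4 and 1665.0 in untreated BMDMs of mice 1 to 4, 1844.9, 2802.2, 1749.9 and 1601.3 at 1 h and 1702.2, 2377.2, 1720.2 and 1449.7 at 4 h normalized counts. Mouse 2 was the highest in every group, 1.49 times the next mouse. *Ctsk* had 94.4, 36.2, 64.6 and 58.2 in untreated BMDMs of mice 1 to 4, 102.8, 45.1, 47.1 and 62.6 at 1 h and 90.7, 35.5, 50.9 and 41.3 at 4 h normalized counts. Mouse 1 was the highest in every group, at 1.77 times the next mouse, and these few counts limit what can be seen. The mouse with the highest value was the same in all 3 groups for 20 of the 56 members. The ratio of the highest to the lowest mouse mean had a median of 1.12 over the members and was at least 1.5 in 3 of them.

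**Figure D5:**
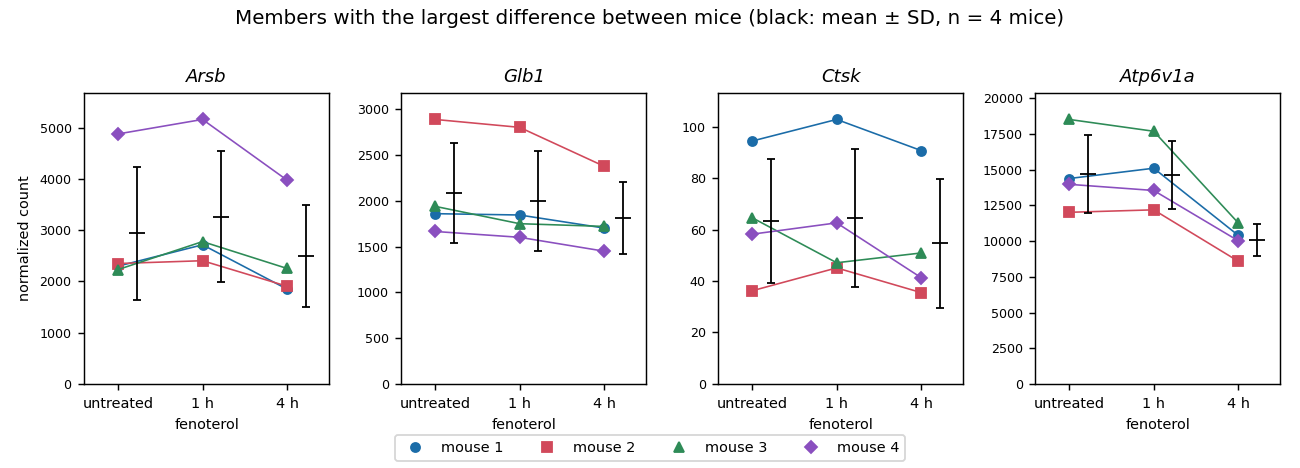
Normalized counts of the 4 members with the largest ratio between mice, with 1 line per mouse across the 3 groups and the mean ± SD of 4 mice in black. *Arsb* was highest in mouse 4, *Glb1* in mouse 2, *Ctsk* in mouse 1 and *Atp6v1a* in mouse 3, in every group.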

How the data were processed

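RNA was sequenced from BMDMs of 4 mice in 3 conditions (12 libraries). Reads were single-end, 50 bases, from a stranded mRNA kit. The deposited values are raw read counts per Ensembl gene, made by the authors with TopHat2 2.0.11 and HTSeq 0.8.0 on GRCm38 per the labels. The strand option and annotation release are not given in the sources used here, so reads of overlapping genes on opposite strands may not be told apart. Total counts were 14580533 to 24153284 per library, and 53274 of 53379 identifiers were named with GENCODE M21.

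Genes were kept with edgeR's filterByExpr, scaled by TMM and fitted over all 12 libraries without a covariate by the quasi-likelihood test (edgeR 4.0.16, R 4.3.3), with Benjamini-Hochberg adjustment over 12386 genes per comparison and a threshold of 0.05. Normalized counts were rescaled to 1 common library size, the mean effective one, and FPKM values were computed from the counts and exon lengths. The fit was tested on simulated data drawn without differences between mice, so that test does not cover the pairing by mouse. The design splits each mouse's cells over the 3 conditions, so the mouse pairs the libraries: deviations from the group means correlated at 0.29 to 0.561 within a mouse (12 pairs) and at -0.304 to 0.0912 between mice (36 pairs). The fit with the mouse as a block, DESeq2 1.42.0, limma 3.58.1, other scalings, filters and thresholds, and each library left out were alternatives. The members and lists were chosen with earlier results of these data known. By rule, every member is named, 28 are given per library (*Arsb*, *Glb1* and *Ctsk* were added after their values were seen), and up to 2 genes of each other list are named per time point. Beyond it, *Tfec*, *Atp6v1g1*, tied with *Tcirg1* at the rounded value, and the osteoclast markers were named after their values were seen.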

Additional observations from a re-analysis of the deposited data

Results flagged for a closer look

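A library stood apart from the other 3 of its group in 10 of 168 groups of 4 libraries (56 members in 3 conditions). Chance flags about 1 in 20 such groups, here 8.4. On the high side were *Arsb* in mouse 4 untreated (4878.8 normalized counts, others 2231.7 to 2349.7) and at 1 h (5161.9, others 2404.6 to 2777.8), *Npc1* in untreated mouse 1 (9013.1, others 7858.6 to 8053.7), *Acp5* in untreated mouse 1 (79.7, others 58.9 to 61.4), *Arsa* in mouse 4 at 1 h (1809.5, others 1624.9 to 1647.8) and *Lamp2* in mouse 4 at 4 h (15364.5, others 13304.3 to 13647.5). On the low side were *Tfe3* in untreated mouse 3 (5185.2, others 5714.5 to 5765.0), *Man2b1* in mouse 1 at 1 h (31229.2, others 33577.1 to 33997.0), *Psap* in mouse 3 at 1 h (214407.2, others 243992.8 to 248915.0) and *Fuca1* in mouse 4 at 4 h (5705.0, others 6870.7 to 7066.9).

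The effect of fenoterol differed between 1 h and 4 h for 31 members, by edgeR's test of 4 h against 1 h. The differences are log2 fold changes of 4 h minus 1 h. With scaling by library size only, those of *Mcoln1* (adjusted p = 0.064), *Tpp1* (0.0721), *Sgsh* (0.0847), *Psap* (0.0637), *Tfeb*, *Lamp1*, *Ids* and *Atp6v1h* did not pass, and that of *Psap* also not in limma with trend (0.0536). Among the transcription factors they were -1.76 for *Mitf*, -0.32 for *Tfeb* and 0.24 for *Tfe3*. Among V-ATPase subunits they were -1.64 for *Atp6v0a1*, -1.06 for *Atp6v0d2*, -0.59 for *Atp6v1b2*, -0.54 for *Atp6v1a*, -0.4 for *Atp6v0d1*, -0.39 for *Atp6v1c1* and -0.2 for *Atp6v1h*. Among membrane proteins they were -0.44 for *Npc1*, -0.3 for *Mcoln1*, -0.29 for *Scarb2* and -0.14 for *Lamp1*. Among proteases they were 0.83 for *Ctsl*, -0.86 for *Ctsc*, -0.48 for *Ctsz*, -0.35 for *Lgmn* and -0.22 for *Tpp1*. Among glycosidases they were 0.36 for *Neu1*, -0.48 for *Gaa*, -0.44 for *Idua*, -0.35 for *Naglu*, -0.35 for *Manba* and -0.24 for *Hexa*. Among sulfatases they were -0.28 for *Arsa*, -0.24 for *Sgsh* and -0.21 for *Ids*, and among lipid enzymes and activators -1.06 for *Lipa*, -0.26 for *Asah1* and -0.26 for *Psap*.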

How the results depend on the processing

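At 1 h, the 3 higher and 3 lower members became 9 and 5 with the mouse as a block, 1 and 6 with library size scaling only, 1 and 1 at an adjusted p under 0.01, and 0 and 1 with a change of at least 1.5-fold, and DESeq2 called 5 higher. At 4 h, the 4 higher members became 2 at 0.01 and 1 at 1.5-fold, and the 26 lower ones 7 at 1.5-fold. Between the time points, the 3 higher members became 5 with library size scaling only and 1 at 1.5-fold, and the 28 lower ones 6 at 1.5-fold. Leaving out each library in turn gave 1 to 4 higher and 2 to 3 lower members at 1 h, 2 to 5 and 24 to 26 at 4 h, and 3 to 3 and 25 to 30 between the times. Only 2 members were higher at 4 h without untreated mouse 2, untreated mouse 4 or mouse 1 at 4 h. The cause of these shifts was not tested. *Arsb*, not called at 4 h, changed sign without untreated mouse 4 (0.11) and lay between -0.55 and 0.11 over the libraries left out, with no call. Library size scaling moved the median of all genes to -0.07 at 1 h, 0.03 at 4 h and 0.10 between the times. Of the calls, 26 of 30 at 4 h, 3 of 6 at 1 h and 23 of 31 between the times held in each of 9 alternatives, and no called member changed sign. Pairing by mouse ended no call of a member.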
